A study of Rattus norvegicus with 6 samples.

Results

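Heat shock proteins are chaperones that keep other proteins from clumping and help them fold. The small heat shock proteins, which share the alpha-crystallin domain, hold unfolding proteins without using ATP and are known for their high levels in lens, heart and skeletal muscle. The Hsp70 and Hsp90 machines of the cytosol then refold or mature these clients in cycles driven by ATP, with J-domain proteins that deliver clients and nucleotide exchange factors that release them. In heat or other protein stress, heat shock factor 1 binds repeated short elements in the promoters of many of these genes.

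The rule named 10 genes, the small heat shock proteins Cryab, Hspb1, Hspb6, Hspb7 and Hspb8 and the cytosolic chaperones Hspa8, Hsp90aa1, Hsp90ab1, Hsph1 and Dnajb1, and they were taken by their symbols. Of these, 8 were among the 15388 genes of the count tables, and all 8 passed the filter on low counts, while Hspa8 and Hsp90aa1 were not analysed here. The genes were chosen by their function and by their LP to NP differences in these same counts, so those differences are given below as a description without a p-value.

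Thyroids of adult Sprague-Dawley rats were collected from non-pregnant animals (NP, 3 samples) and on day 18 of pregnancy, counted from the vaginal plug as day 1 (LP, 3 samples), and their polyadenylated RNA was sequenced. The labels name no transgene and no agent. They number the samples of each group as repeats 1 to 3. The question of the comparison was how gene expression of the maternal thyroid differs in late pregnancy.

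Counted reads lay between 2752144 and 3449857 per sample, and thyroglobulin (Tg), the defining product of the thyroid follicle, alone took 22.9% to 24.5% of them. Markers of C cells and of the parathyroid were abundant as well, with summed levels of 12590 to 15198 and 3730 to 4848 CPM (reads relative to the library total, after TMM scaling). In both groups replicates 2 and 3 showed no difference beyond counting noise (chi-square over its degrees of freedom 1.02 in NP, p = 0.111, and 0.995 in LP, p = 0.667, over genes), and were counted as 1 sample with replicate 1 as the other. Every mean ± SD below therefore has n = 2 per group. Replicate 1 stood apart in both groups by its smooth muscle markers, which summed to 256 to 312 CPM there and to 1942 to 2113 CPM in replicates 2 and 3, so each member is also given for replicate 1 and for replicates 2 and 3 alone. The protocol names 3 rats per group without tying a repeat to a rat. The tests below treat all 6 samples as separate unless stated otherwise, and their p-values may measure only the spread between these samples.

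The heat shock element consists of the units GAA and TTC in alternation, each separated from the next by any 2 bases. Promoters of 300 bases, from 250 bases before the transcription start to 50 bases from it, were taken from RefSeq (build GRCr8) and matched by symbol for 7 of the 8 measured genes, all but Cryab. A pair of units, GAANNTTC or TTCNNGAA, was found in 5 of the 7, or 71.4%, against 14.7% of the promoters of 21847 protein-coding genes. Both patterns read the same on either strand. The stretches that hold the pairs are shown because 5 of the 7 genes have such pairs in common, and capitals mark the units with the 2 bases between them:
Hspb1, chr12:26432387-26432446, minus strand: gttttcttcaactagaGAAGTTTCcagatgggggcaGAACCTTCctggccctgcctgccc
Hspb6, chr1:94934122-94934156, plus strand: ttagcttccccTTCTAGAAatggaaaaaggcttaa
Hspb6, chr1:94934207-94934246, plus strand: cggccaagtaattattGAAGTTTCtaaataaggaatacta
Hspb8, chr12:45837269-45837308, plus strand: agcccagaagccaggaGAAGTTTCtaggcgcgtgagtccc
Hsph1, chr12:10427247-10427286, plus strand: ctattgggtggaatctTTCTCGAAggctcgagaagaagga
Hsph1, chr12:10427316-10427360, plus strand: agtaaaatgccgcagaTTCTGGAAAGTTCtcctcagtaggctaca
Dnajb1, chr19:41431101-41431168, minus strand: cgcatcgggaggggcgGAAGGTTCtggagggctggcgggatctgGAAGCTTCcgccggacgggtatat

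The same 8 letters, with the same 2 bases in the gap, stand in Hspb1, Hspb6 and Hspb8. Hsph1 was the 1 gene of the 7 with 3 units in a row, a run that 0.54% of protein-coding promoters hold. Counted from the transcription start at 0, the pair of Hspb8 began at -23, those of Dnajb1 at -11 and 17, and the run of Hsph1 at -36. Those of Hspb1 lay farther upstream, at -129 and -109, as did those of Hspb6 at -239 and -149 and the other pair of Hsph1 at -105. No pair was found in the windows of Hspb7 and Hsp90ab1. Of the 61 other chaperone genes with a promoter, 17 (27.9%) held a pair and 4 (6.56%) a run of 3. The CCAAT box stood in 4 of the 7 promoters against 38.0% of protein-coding genes, and the TATAAA box in 2 of 7 against 13.0%, on either strand. A match of letters is a description and does not show that a factor binds there.

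**Figure D1:**
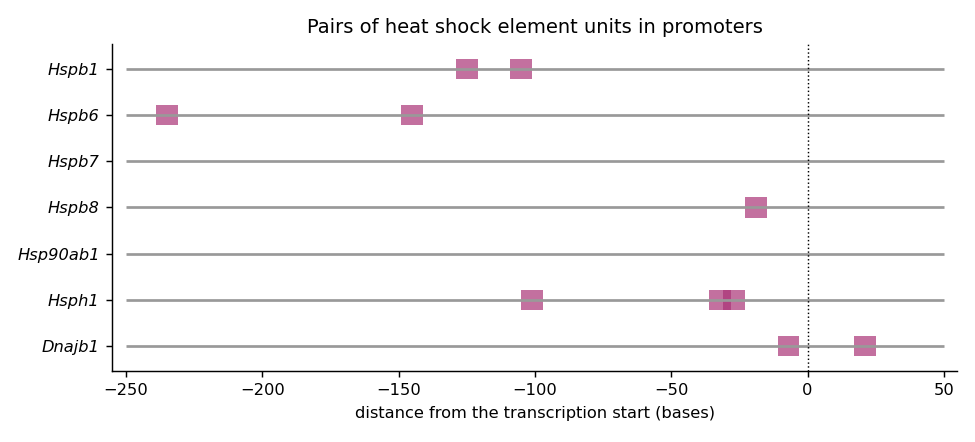
Each line is the promoter of 1 heat shock gene, with the distance from the transcription start in bases on the horizontal axis, and each box is 1 pair of heat shock element units. Hspb7 and Hsp90ab1 have no box, and the 2 overlapping boxes of Hsph1 form its run of 3 units.

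In LP, 4 of the 5 small heat shock genes stood far above NP and the measured cytosolic chaperones were lower or overlapped. Cryab, Hspb6, Hspb7 and Hspb8 met the criteria of the study (fold change above 2, adjusted p below 0.05), here applied to edgeR's quasi-likelihood test, as higher in LP, beside 4.9% of all 11738 genes tested. Hsph1 met them as lower in LP, beside 0.537% of all genes. By the adjusted p-value alone, the counts were 5 higher and 2 lower, beside 15.3% and 11.7% of all genes. Since the genes were chosen with this contrast known, nothing is read from these shares. In 5 genes every LP sample lay above every NP sample, in 2 every LP sample lay below, and in 1, Dnajb1, the groups overlapped. Among all genes 21.2% and 18.9% did not overlap in these directions.

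**Figure D2:**
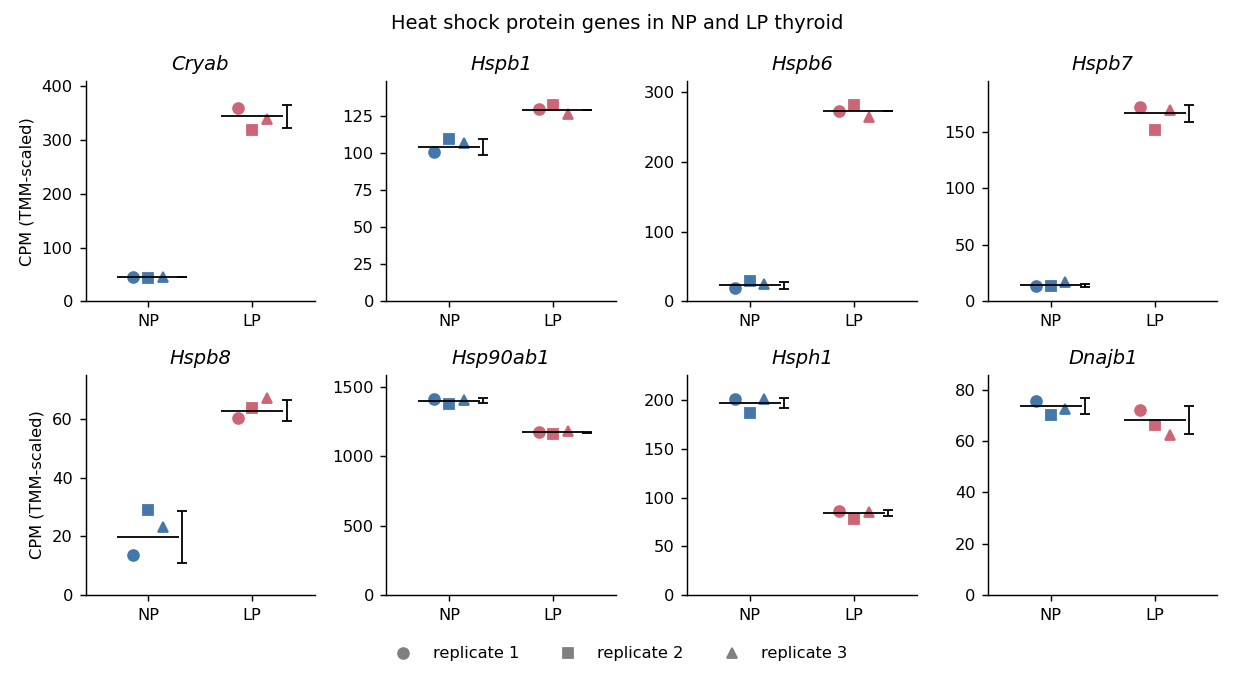
Each panel shows 1 gene, with the level in TMM-scaled CPM from 0 on the vertical axis, points for the 3 NP and 3 LP samples, a line for the group mean and a bar for the SD over 2 samples, replicates 2 and 3 being counted as 1. The groups lie far apart in Cryab, Hspb6, Hspb7, Hspb8 and Hsph1, close but separate in Hspb1 and Hsp90ab1, and overlap in Dnajb1.

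Cryab (ENSRNOT00000059127) encodes alpha B-crystallin, a structural protein of the lens that also guards the Z-disc of striated muscle. Its levels were 45.2, 43.7 and 46.1 CPM in NP replicates 1 to 3 and 360.0, 319.6 and 338.4 CPM in LP. The 3 LP values thus lay far above NP values that differed by little from each other. The means were 45.1 ± 0.18 CPM (SD, n = 2) in NP and 344 ± 22 CPM in LP, a difference of 2.91 on the log2 scale (standard error 0.070) or 7.53-fold. In replicate 1 alone the fold was 7.97, and in replicates 2 and 3 it was 7.32. Its gene overlaps that of Hspb2 in RefSeq, and whether the authors counted reads by strand is not stated, so reads in the shared stretch cannot be assigned with certainty.

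Hspb6 (ENSRNOT00000028401), also called Hsp20, is known for its part in the relaxation of smooth muscle and for its abundance in heart and skeletal muscle. It was measured at 19.4, 28.9 and 24.4 CPM in NP and at 273.1, 282.1 and 264.5 CPM in LP. NP replicate 1 was the lowest of the 6 values, and the LP values were all close together. The means were 23.0 ± 5.2 CPM (SD, n = 2) and 273 ± 0.13 CPM, with a log2 difference of 3.49 (standard error 0.089), an 11.2-fold higher level in LP. Replicate 1 alone gave a fold of 14.1 and replicates 2 and 3 gave 10.3. Its gene overlaps Lin37 in RefSeq, with the same limit on shared reads as for Cryab.

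Hspb7 (ENSRNOT00000051317), the cardiovascular heat shock protein, is known from heart and skeletal muscle. Its levels of 13.3, 13.8 and 16.8 CPM in NP compared with 171.5, 151.5 and 169.5 CPM in LP. No LP value came near those of NP. From 14.3 ± 1.4 CPM (SD, n = 2) the mean went to 166 ± 7.8 CPM, a log2 difference of 3.48 (standard error 0.096). The fold of 11.2 equalled that of Hspb6 to 3 digits, with 12.9 in replicate 1 and 10.5 in replicates 2 and 3.

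Hspb8 (ENSRNOT00000039275), also called Hsp22, works with the co-chaperone Bag3 in the disposal of damaged muscle proteins. Its levels were 13.6, 28.9 and 23.1 CPM in NP and 60.3, 63.7 and 67.0 CPM in LP. The groups did not overlap, and NP replicate 1 was the lowest sample by a wide margin. The means of 19.8 ± 8.7 CPM (SD, n = 2) and 62.8 ± 3.6 CPM gave a log2 difference of 1.53 (standard error 0.15), or 2.88-fold. This was the member whose size rested most on 1 library. The fold was 4.42 in replicate 1 and 2.51 in replicates 2 and 3, and the log2 difference lay between 1.29 and 1.77 over all settings tried.

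Hspb1 (ENSRNOT00000031555), the Hsp27 of many tissues, binds actin and is induced by stress. It differed least among the small heat shock genes. Levels of 100.4, 109.1 and 106.8 CPM in NP faced 129.2, 132.4 and 126.3 CPM in LP, so that the groups were close but did not overlap. The log2 difference was 0.29 (standard error 0.059), from 104 ± 5.3 CPM (SD, n = 2) to 129 ± 0.12 CPM. It was 0.36 in replicate 1 and 0.26 in replicates 2 and 3. Summed over the 5 small heat shock genes, the level was 192 to 225 CPM in NP and 949 to 994 CPM in LP, 4.73-fold higher in LP.

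Hsph1 (ENSRNOT00000001201), the Hsp105 protein of the Hsp110 family, releases nucleotide from Hsp70 and is induced by heat. It went the opposite way. NP samples had 200.8, 186.7 and 201.3 CPM and LP samples 86.2, 78.0 and 85.5 CPM. Every LP value was far below every NP value. The means were 197 ± 4.8 CPM (SD, n = 2) and 84.0 ± 3.2 CPM, with a log2 difference of -1.24 (standard error 0.061), a level 2.36-fold lower in LP. Replicate 1 gave a log2 difference of -1.22 and replicates 2 and 3 gave -1.25, so that this difference was nearly the same in both.

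Hsp90ab1 (ENSRNOT00000086986), the constitutive Hsp90 of the cytosol, was measured at 1413, 1376 and 1404 CPM in NP and at 1172, 1163 and 1179 CPM in LP. The LP values were lower throughout, by a small step. The log2 difference was -0.25 (standard error 0.035), from 1401 ± 16 CPM (SD, n = 2) to 1172 ± 0.94 CPM. It was -0.27 in replicate 1 and -0.25 in replicates 2 and 3. RefSeq names 23 pseudogenes of Hsp90ab1, and how the authors' mapping shared reads among such copies is not known, so its level is uncertain.

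Dnajb1 (ENSRNOT00000038879), the heat-inducible Hsp40 that hands clients to Hsp70, was the member whose groups overlapped. Its levels were 75.7, 70.0 and 72.5 CPM in NP and 72.1, 66.1 and 62.6 CPM in LP. LP replicate 1 lay within the NP range, and the other LP samples lay below it. The log2 difference was -0.12 (standard error 0.074), from 73.5 ± 3.1 CPM (SD, n = 2) to 68.2 ± 5.5 CPM. It was -0.07 in replicate 1 and -0.15 in replicates 2 and 3. Each of the 8 genes had the same direction in replicate 1 as in replicates 2 and 3.

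**Figure D3:**
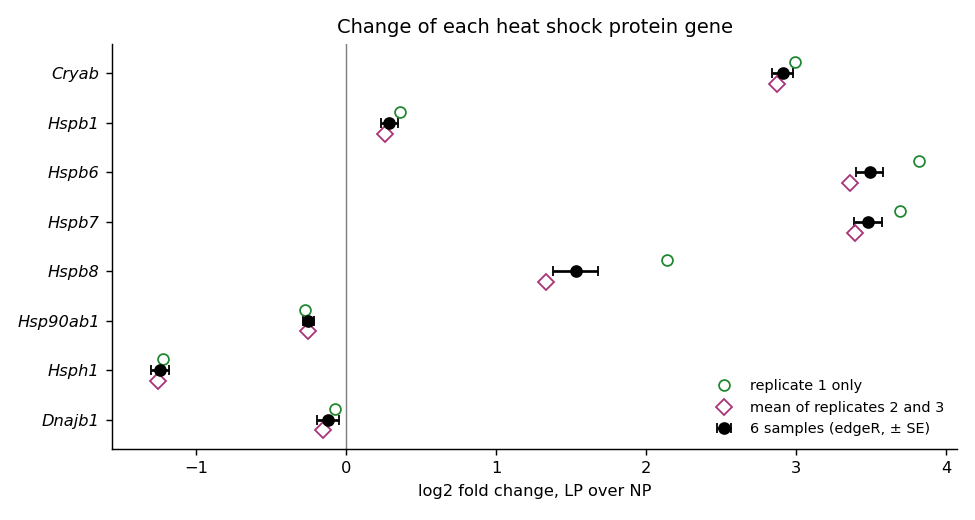
The horizontal axis is the log2 fold change of LP over NP, with filled points for the edgeR fit on 6 samples and bars for its standard error, open circles for replicate 1 alone and open diamonds for the mean of replicates 2 and 3. Hspb8 has the widest gap between replicate 1 (2.14) and replicates 2 and 3 (1.33), while Hsph1 (-1.22 and -1.25) has almost none.

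Muscle markers moved with the small heat shock genes. Of 20 skeletal muscle markers, 15 were in the tables and 13 were tested, and 12 rose in LP with a fold change above 2 (edgeR's quasi-likelihood test, adjusted p below 0.05), with a median log2 fold change of 7.66 against -0.01 for all genes. They summed to 35.1 to 83.2 CPM in NP and to 5683 to 6006 CPM in LP. Tnnc2, the fast troponin C, was counted 22, 14 and 26 times in the NP samples against 4554, 4532 and 4641 times in LP, and Neb, the giant protein of the thin filament, 27, 21 and 30 times against 3990, 4114 and 3963. Myh1 and Mylpf were at 0 reads in every NP sample. Acta1, the skeletal muscle actin, did not follow them: NP counts were 0, 166 and 144 and LP counts 0, 186 and 185 (log2 fold change 0.11, edgeR adjusted p = 0.93). It was thus absent from replicate 1 of both groups, where smooth muscle markers were low as well. Casq1 did not follow them either, but its counts of 0, 4 and 2 in NP and 0, 2 and 1 in LP were too low to test. The part of skeletal muscle RNA in the differences of the small heat shock genes was not tested. In whole tissue, more cells of a type and more RNA per cell cannot be told apart.

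Smooth muscle markers behaved otherwise. None of the 8 passed the test between LP and NP (median log2 fold change -0.05), but replicate 1 was low in both groups. Actg2, the enteric actin, showed this most, with NP counts of 4, 610 and 542 and LP counts of 5, 641 and 595. Hspb6, Hspb8 and Bag3 had their lowest level of all samples in NP replicate 1, where the smooth muscle markers summed to 312 CPM against 2113 and 2016 in NP replicates 2 and 3. Hspb1 and Hspb7 were lowest there as well, by less. In LP, Hspb8 and Bag3 were again lowest in replicate 1, at 60.3 and 93.9 CPM, whereas Hspb6 at 273.1 CPM and Hspb1 at 129.2 CPM lay between the other LP samples and Hspb7 at 171.5 CPM above them. Whether smooth muscle RNA had a part in these values was not tested.

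**Figure D4:**
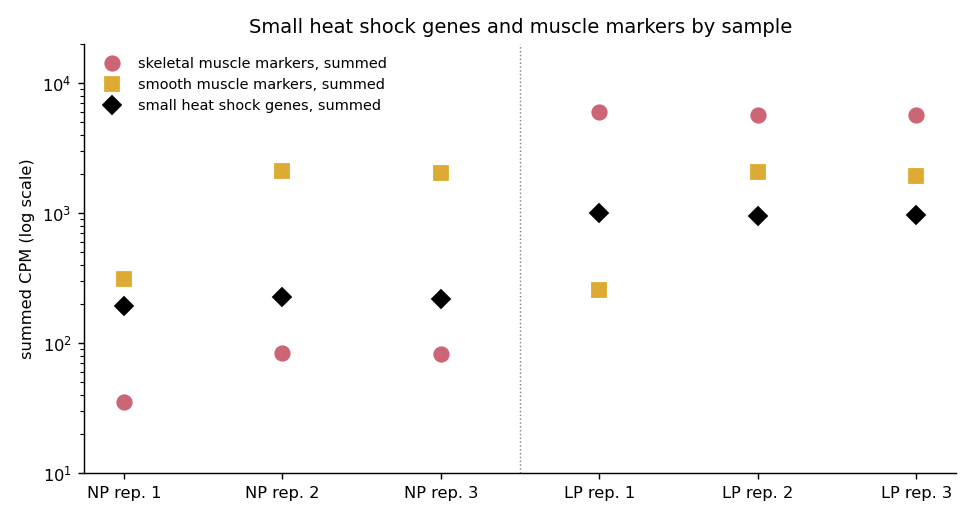
For each of the 6 samples the vertical axis (log scale) gives the summed CPM of 15 skeletal muscle markers, of 8 smooth muscle markers and of the 5 small heat shock genes. The small heat shock genes (192 to 225 against 949 to 994 CPM) and the skeletal muscle markers (35.1 to 83.2 against 5683 to 6006 CPM) separate the groups, and the smooth muscle markers separate replicate 1 from replicates 2 and 3.

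Markers of other cells moved less. Immediate early genes, which respond within minutes to handling and stress, summed to 318 to 335 CPM in NP and to 531 to 581 CPM in LP, and 3 of 6 tested rose. The summed level in LP over that in NP was 1.04-fold for follicular cells, 0.884-fold for C cells, 0.832-fold for parathyroid, 0.858-fold for endothelium, 1.05-fold for adipocytes, 1.75-fold for Schwann cells and 1.21-fold for leukocytes. Most follicular reads were those of Tg. By edgeR's adjusted p below 0.05, 3 of 11 tested follicular markers were higher and 3 lower. The largest such differences on the log2 scale were 0.48 for Duoxa2 and -0.94 for Slc5a5. Pth held most parathyroid reads and was the 1 of 3 parathyroid markers called, as lower. Airway epithelium markers had 6 to 15 reads in NP and 41 to 48 in LP. The part of these cells in the results was not tested.

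Among non-member genes with a mean of at least 50 reads, the levels most like those of Cryab over the 6 samples, by the Pearson correlation of log2 CPM, were those of Adck3, Lmod3, Ifi27l2b (r = 0.9999 each), Myh1 and Ppp1r3a (r = 0.9998 each). Lmod3 and Myh1 are known from the thin and thick filaments of skeletal muscle, and Ppp1r3a targets a phosphatase to muscle glycogen. Lmod3, Myh1 and Ppp1r3a had 0 reads in each NP sample, and Lmod3 had 176, 143 and 167 in LP. The other genes, Adck3 and Ifi27l2b, were read in NP as well, with counts of 68, 72 and 80 and of 104, 112 and 114. Their log2 fold changes were 4.42 and 1.73. The 6 points form 2 clusters, so r mostly records the step between groups, and 3.35% of the 7935 genes compared with Cryab had an r above 0.99.

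The other chaperone genes were then examined by function, over 8 lists of 82 genes, of which 75 were in the tables and 71 were tested. In edgeR's quasi-likelihood test with adjustment over all genes, 14 rose (19.7%), 17 fell (23.9%) and 40 did not pass, beside 15.3% and 11.7% of all genes tested. With replicates 2 and 3 summed into 1 sample, 11 rose and 15 fell, 7 of the 31 calls being lost (Hspa12b, Stip1, Cct2, Cct8, Hspa9, Clpb and Lonp1), and with DESeq2 in place of edgeR, 9 rose and 10 fell. Their median log2 fold change was -0.09, against -0.01 for all genes.

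Among the genes listed as other small heat shock proteins, Hspb2 and Hspb3 rose and Hspb11 did not pass edgeR's test (log2 fold change -0.39, adjusted p = 0.176). Whether each listed gene encodes the alpha-crystallin domain was not checked. Hspb2, known from heart and skeletal muscle, went from counts of 8, 9 and 6 in NP to 51, 48 and 52 in LP, or 2.55 ± 0.25 (SE) on the log2 scale (edgeR adjusted p = 3.7e-07). Its gene overlaps that of Cryab in RefSeq, which has many more reads. Reads in the shared stretch cannot be assigned with certainty, so the rise of Hspb2 may not be separate from that of Cryab. Hspb3, the partner of Hspb2 in muscle, went from counts of 0, 2 and 0 to 40, 42 and 46 (adjusted p = 7.48e-08 by edgeR). The 128 reads of LP against 2 of NP, per counted read, give a ratio of 54.9 (95% exact interval 14.9 to 458, counting error only). Both genes had every LP sample above every NP sample. Hspb9, a testis gene, had at most 1 read in any sample.

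Of 8 tested BAG proteins and Hsp70 partners, 2 rose and 1 fell. Bag3, which binds Hspb8 and Hsp70, was at 30.1, 41.4 and 44.8 CPM in NP and at 93.9, 96.7 and 100.1 CPM in LP. No sample overlapped, and Bag3 rose by 1.31 ± 0.098 (SE) on the log2 scale (edgeR adjusted p = 1.24e-08), with 1.64 in replicate 1 and 1.19 in replicates 2 and 3. Unc45b, on the list of Hsp90 partners, folds striated muscle myosin and rose from counts of 1, 1 and 3 to 184, 179 and 193 (log2 fold change 6.55, standard error 0.24, adjusted p = 5.42e-13 by edgeR). Of the other BAG proteins, Bag1 fell (log2 fold change -0.35, adjusted p = 0.000709) and Bag6, an escort of tail-anchored proteins, rose (0.21, adjusted p = 0.00936), both by edgeR.

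Among 12 J-domain proteins, 4 rose and 3 fell (3 and 1 with DESeq2). Dnajb5 rose from 18.3, 20.1 and 19.8 CPM to 50.3, 49.4 and 45.6 CPM (log2 fold change 1.32, adjusted p = 4.66e-08 by edgeR). Dnaja4 rose from 45.4 ± 10 to 81.4 ± 9.2 CPM (SD, n = 2; log2 fold change 0.88, edgeR adjusted p = 6.84e-06), and Dnajc21, a factor of ribosome assembly, rose by 0.59 (adjusted p = 0.000953). Dnaja1, the main J-domain partner of the constitutive Hsp70, fell by 0.49 on the log2 scale (standard error 0.060, adjusted p = 7e-06 by edgeR), from 153 ± 9.3 to 111 ± 1.1 CPM. Dnajb2 and Dnajc7 fell by 0.22 and 0.21 on the log2 scale (edgeR adjusted p = 0.0227 and 0.0363).

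Of 16 tested Hsp90 partners, 6 fell and Unc45b alone rose (4 and 1 with DESeq2, 5 and 1 with replicates 2 and 3 summed). Fkbp5, an immunophilin of the glucocorticoid receptor complex that glucocorticoids themselves induce, was at 55.9, 60.5 and 49.1 CPM in NP and at 21.5, 21.1 and 17.9 CPM in LP. Its fall, -1.45 ± 0.12 (SE) on the log2 scale (edgeR adjusted p = 3.34e-08), was the 1 fall past 2-fold among the 71 genes. Ptges3, the p23 co-chaperone, fell by 0.44 (adjusted p = 0.000171) and Sugt1 by 0.34 (adjusted p = 0.0176) on the log2 scale by edgeR. Of the chaperonin and prefoldin subunits, which fold actin and tubulin, 7 of 14 fell, none rose, and the median log2 fold change was -0.22, beside 11.7% of all genes that fell. With DESeq2, 4 of the 14 fell. The largest falls there were those of Cct5 (-0.35, adjusted p = 9.75e-05), Cct6a (-0.33, adjusted p = 0.00205) and Cct4 (-0.32, adjusted p = 0.000449) in edgeR's test.

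Hspa1b, the classic heat-inducible Hsp70, with counts of 2, 3 and 7 in NP against 2, 2 and 3 in LP, did not pass the filter. Its near-identical copy Hspa1a was not analysed here, and no difference was detectable at this depth. Of the 6 tested genes of the cytosolic Hsp70 family, Hspa12b, an endothelial member, rose (log2 fold change 0.60, adjusted p = 0.0293 by edgeR) and 5 did not pass. Hsf1, the main heat shock factor, rose from 56.5 ± 4.8 to 67.0 ± 0.43 CPM (SD, n = 2; log2 fold change 0.28, edgeR adjusted p = 0.0179), and Hsf2 and Hsbp1 did not pass. Of 9 mitochondrial chaperones, Clpb (0.24, adjusted p = 0.0379), Hspa9 (0.20, adjusted p = 0.0107) and the protease Lonp1 (0.17, adjusted p = 0.049) rose in edgeR's test by these log2 fold changes. None of these 3 passed with replicates 2 and 3 summed (adjusted p = 0.0724, 0.0632 and 0.145 by edgeR), nor did Hspa12b (0.0543).

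Several of these small changes lost their call when 1 library was left out, with fewer samples in the fit and no change of direction. Over the alternatives tried, the adjusted p-value of Hsf1 lay between 0.00594 and 0.158, and it missed 0.05 without NP replicate 2 (0.105), NP replicate 3 (0.0519) or LP replicate 3 (0.0952). That of Hspa12b lay between 0.00806 and 0.168, with a miss without NP replicate 1 or 2 or LP replicate 1 or 3 (0.0844 to 0.121). Dnajb2 (0.00285 to 0.161) missed it without NP replicate 1 or 3 or LP replicate 3 (0.0535 to 0.0914), and Dnajc7 (0.00527 to 0.222) without NP replicate 1 or 2 or LP replicate 1 or 2 (0.0577 to 0.154). Sugt1 (0.00446 to 0.138) missed it without NP replicate 2 or LP replicate 3 (0.0615 to 0.0861), and Hspa9 (3.09e-05 to 0.0769) without replicate 2 of either group (0.0503 to 0.069). Bag6 missed it only with library totals alone (0.0637). Clpb (0.0294 to 0.293) missed it without any 1 sample but LP replicate 3 (0.0629 to 0.137), and Lonp1 (0.00555 to 0.228) without any 1 sample but NP replicate 1 (0.0516 to 0.228). These p-values are from edgeR with each sample left out, or from the other alternatives with DESeq2 among them.

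**Figure D5:**
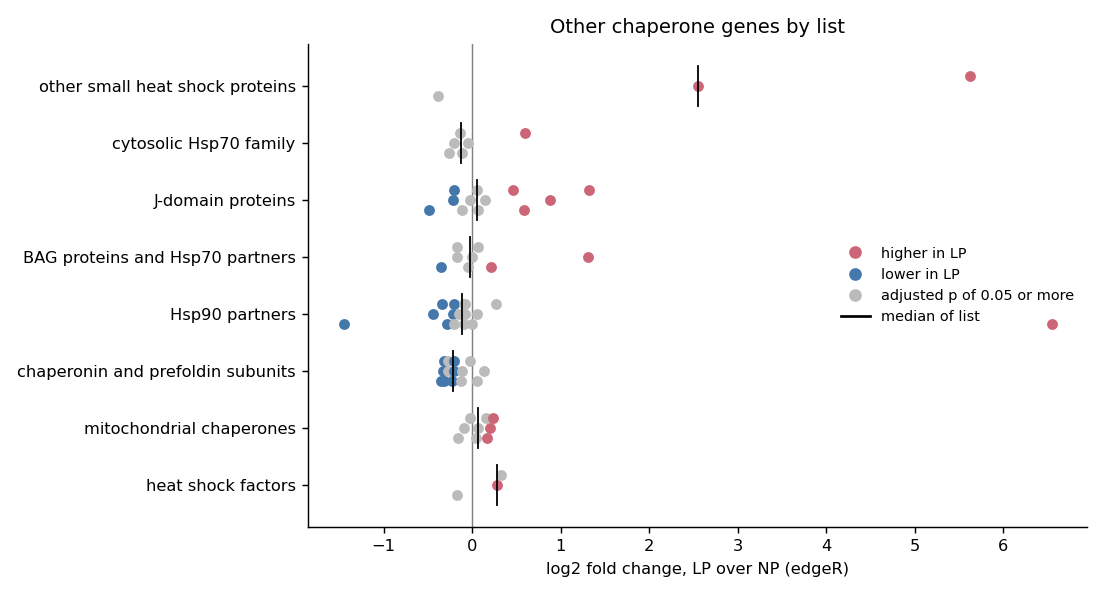
Each point is 1 of the 71 tested chaperone genes, with the log2 fold change of LP over NP on the horizontal axis and the functional lists as rows, coloured by whether the gene was higher, lower or not called at an adjusted p of 0.05, and black lines mark the median of each list. The points farthest to the right are Unc45b, Hspb3 and Hspb2, the point farthest to the left is Fkbp5, and the chaperonin and prefoldin subunits lie mostly just left of 0.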

How the data were processed

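RNA-seq of 6 rat thyroid samples, 3 NP and 3 LP, was analysed. The authors mapped reads to rn5 with TopHat 1.4.0, counted them with HTSeq-count on Ensembl release 81 gene models and deposited raw counts for each sample, without normalization. The strand setting is not given in the sources used here. Rows carry a symbol and a transcript identifier. No gene lengths were at hand, so levels are not compared between genes, and proteins were not used.

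Counts were fitted in R 4.3.3 with edgeR 4.0.16 (quasi-likelihood test, TMM, default filter, Benjamini-Hochberg adjustment over 11738 genes). Standard errors are the absolute log2 fold change over the square root of F. The fit was tested on simulated data. DESeq2 1.42.0, other scalings and filters, a replicate block, summed replicates and left-out samples were alternatives.

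Deviations from the group means of same-numbered samples correlated across genes at 0.493, 0.223 and 0.192. These deviations were not compared between samples with different numbers, and replicate 1 stood apart in both groups. In their counts, NP replicate 1 differed less from LP replicate 1 (chi-square over its degrees of freedom 13.1) than from LP replicates 2 and 3 (15.2 and 15). NP replicates 2 and 3 differed from LP replicates 2 and 3 by 12.5 to 12.7, whatever the number, and from LP replicate 1 by 16.4 and 16.2. These values therefore cannot show that the numbers pair the samples, and the labels name no shared litter or batch. The main fit was unpaired, and pairing by number was used only in the replicate block.

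The heat shock genes and all lists were chosen with earlier results of these data known. Genes were named by a rule: all members, up to 3 higher and 3 lower genes of each chaperone list with an adjusted p below 0.05, and Hspb2, Hspa1a, Hspa1b, Bag3, Dnaja1 and Hsf1. The 2 markers with the most reads and those at 0 in a group are given for skeletal muscle, and the 5 genes most like Cryab were named. Acta1, Casq1, Actg2, Slc5a5, Duoxa2, Pth, Stip1, Cct2, Cct8, Vbp1, Hspa1l, Hsf4, Hspb9, Hspb11, Hsf2 and Hsbp1 were named after their values were seen.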

Additional observations from a re-analysis of the deposited data

How the results depend on the processing

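No member changed direction under any of the 16 alternatives, and the counts of 4 members higher and 1 lower by the study's criteria were the same in each. By the adjusted p-value alone the members lower in LP numbered 2. The widest range of a member was that of Hspb8. DESeq2 gave 703 lower genes in all, and 9 other chaperone genes higher and 10 lower. With library totals alone, without TMM, 2146 genes were lower in all, 9 other chaperone genes were higher and 27 lower, and the share of called genes that were higher went from 56.6% to 40.5%, with a median shift of -0.072 on the log2 scale. Of the 23 other chaperone genes named by the rule, 14 kept their call under each alternative run for them. Hspb2, Hspb3 and Hspa12b were not run with the filter at a mean of 50 reads, which they do not reach. Under a replicate block (samples paired by number), 2057 genes were higher and 1727 lower, and among the other chaperones 15 and 21, against 14 and 17 without it. The gene that became higher, Vbp1 (edgeR adjusted p = 0.0485), did not pass when the block was joined with summed replicates 2 and 3, where 14 were higher and 21 lower. The block alone changed the call of no member and of none of the 23 genes. With replicate 1 of both groups left out, an alternative chosen after seeing the data, 13 other chaperone genes were higher and 14 lower, on replicates that differ by counting noise. When genes with a mean under 50 reads were dropped, 286 genes were higher and 29 lower by the study's criteria, against 575 and 63, since fewer genes were tested (7943). Without the filter, Hspa1l and Hsf4 also passed as higher in edgeR's test (adjusted p = 0.00129 and 0.00349). The order of the members by level per length was not run. With few reads, as for Hspa1b, a difference cannot be shown at this depth.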
